A study of Rattus norvegicus with 8 samples.

Results

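The passenger strands of microRNA (miRNA) hairpins, marked by an asterisk in the older naming used on the array and called star strands here, were examined in rat cardiomyocytes of 2 postnatal ages. The members were all miRNA names ending in an asterisk on the array, except those with a probe on chromosome 6 (build rn4) within 300 kb of the miR-134 probe, a dense miRNA cluster. Of 240 such names 36 were left out by that exception, which left 204 star strands of the 677 rat miRNAs on the array. The study compared cardiomyocytes of postnatal day 10 (P10, 4 arrays) with those of postnatal day 0 (P0, 4 arrays). Animals of either sex gave the cells, and neither age carried a treatment or an allele by the labels, which name no strain. The younger age is P0 in the labels of the samples and day 1 in the title of the series. Each array held the total RNA of 1 sample in 1 colour, and no label says whether the replicates of an age are separate animals or cultures. A p-value below therefore reflects the variation among these arrays and may be technical only.

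A miRNA hairpin is cut into a short duplex of a pair of strands. One of them, the guide, is usually kept by an Argonaute protein and pairs with messenger RNAs through its seed (bases 2 to 8), while the other, the passenger or star strand, is mostly destroyed. Which strand is kept is known to depend on the 5′ ends of the duplex: the strand whose 5′ end is paired more weakly, and which often begins with U, is favoured. Some hairpins keep both strands, and the newer names 5p and 3p give the position of a strand without calling either a guide.

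RefSeq (GRCr8) held a mature sequence for 181 of the 204 star strands and for 27 of the 32 that were detected. The following are shown because a level or a ratio described below turns on them, each 5′ to 3′ with the seed in capitals, the star strand before its guide where RefSeq held both. miR-125b*, miR-328a*, miR-328a and miR-378 are only named.
miR-99b* (miR-99b-3p): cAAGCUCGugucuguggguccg
miR-99b (miR-99b-5p): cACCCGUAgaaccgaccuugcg
miR-31* (miR-31a-3p): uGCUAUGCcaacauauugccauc
miR-31 (miR-31a-5p): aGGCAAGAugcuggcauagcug
miR-125b-5p, guide of miR-125b*: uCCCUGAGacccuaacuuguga
miR-208* (miR-208a-5p): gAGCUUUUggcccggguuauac
miR-208 (miR-208a-3p): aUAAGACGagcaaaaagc
miR-490* (miR-490-5p): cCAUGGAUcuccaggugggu
miR-490 (miR-490-3p): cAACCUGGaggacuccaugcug
miR-378* (miR-378a-5p): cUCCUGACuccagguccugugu
miR-652* (miR-652-5p): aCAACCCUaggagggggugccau
miR-652 (miR-652-3p): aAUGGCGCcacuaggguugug
miR-32* (miR-32-3p): gCAAUUUAgugugugugauauu
miR-99b* shared its seed with miR-99a*, and miR-208* with miR-208b-5p. miR-30c-1* and miR-30c-2* shared a seed with each other. None of the other star strands shown shared a seed with another miRNA of the array that had a sequence.

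The 5′ ends of the members were unlike those of their guides. U was the first base of 29 of 181 star strands (16.0%) and of 100 of their 169 guides with a sequence (59.2%). C was the first base of 28.7% of the star strands and of 13.6% of the guides. Of the detected star strands 3 of 27 began with U, and of those not detected 26 of 154. The guide began with U in 11 of 25 hairpins with a detected star strand and in 91 of 146 with an undetected one, a difference that was not tested. Over the 171 hairpins with both sequences, the first 4 bases held more A and U in the guide for 77 hairpins, in the star strand for 43, and as many in both for 51. Among the 25 with a detected star strand these counts were 10, 8 and 7, and among the 146 others 67, 35 and 44.

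The signal that scaled an array, the 75th percentile of the 111 probes that all 8 arrays detected, was 580 to 1276 intensity units at P10 and 806 to 1326 on P0 replicates 2 to 4, against 116 on P0 replicate 1. On that dim array no signal under log2 -2.84 after scaling was detected, so that most star strands could not be measured there, while on the other 7 arrays this limit lay between -6.61 and -5.48. Levels are given as log2 of the scaled signal, with lower values set to a floor of -5.89, so that a probe detected on a bright array can lie at the floor. The P10 arrays formed close pairs: over the 157 miRNAs tested, the correlation was 0.998 between replicates 1 and 2 and 0.997 between replicates 3 and 4, but 0.889 to 0.898 between the pairs. P0 replicates 2 to 4 also resembled each other (0.979 to 0.994). All 8 arrays were on 1 slide, P10 in row 2 and P0 in row 1, so the age and the row cannot be told apart. Of the 5 cardiomyocyte miRNAs (miR-1, miR-133a, miR-133b, miR-208 and miR-499) all were detected on every P10 array and 3 on every P0 array. The 5 epithelial miRNAs and miR-122 of liver were detected on no array.

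Star strands were detected less often than other miRNAs at both ages, where a probe counted as detected when a share of 0.5 or more of its spots stood well above background. P10 arrays detected 24, 25, 29 and 27 of the 204 star strands, and P0 arrays 5, 27, 23 and 23. The means were 26.25 ± 2.2 at P10 and 19.5 ± 9.8 at P0 (SD, n = 4), and 24.3 ± 2.3 on P0 replicates 2 to 4, so the ages overlapped and differed by less than the spread at P0. In shares these were 12.9% at P10 and 9.56% at P0, where 33.2% and 27.2% of the 437 miRNAs without an asterisk were detected. On the dim P0 replicate 1 the share was 2.45% for star strands and 15.6% for the others.

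**Figure D1:**
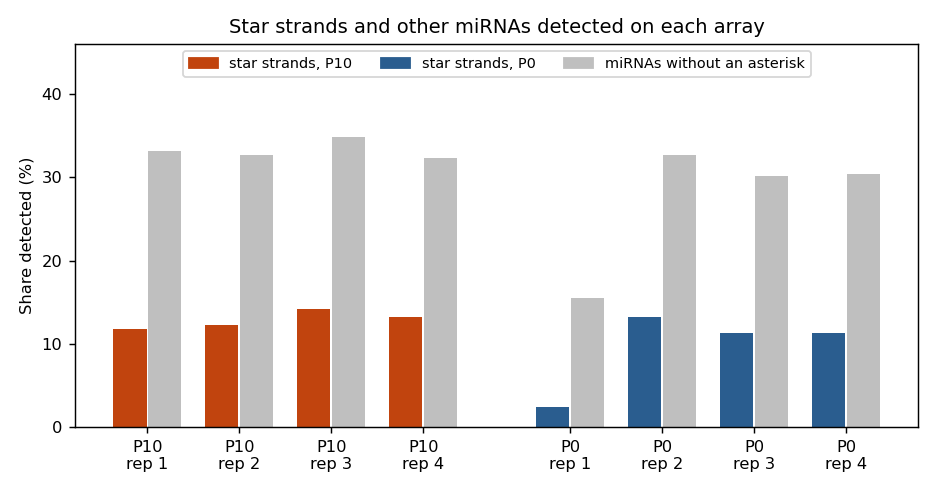
Share of miRNAs detected on each array (vertical axis, %), with star strands as coloured bars (P10 left, P0 right) and the 437 miRNAs without an asterisk as grey bars. The grey bar was higher on every array, and P0 replicate 1 had the lowest bars of both kinds.

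Counted over all 8 arrays, 32 star strands (15.7%) were detected on at least 1 array, against 37.1% of the miRNAs without an asterisk and 29.0% of all 677. 5 (2.45%) were detected on all 8 arrays, where 14.9% of the miRNAs without an asterisk and 10.3% of all 677 were. 23 (11.3%) were detected on all 4 arrays of an age, where 30.4% of the miRNAs without an asterisk and 23.2% of all 677 were. 172 were detected on no array by the probe used, that of highest mean, and their other probes were not counted. Most detected guides had a star strand that was not detected: of 124 hairpins with a detected guide, 20 (16.1%) also had a detected star strand. In 12 hairpins only the star strand was detected by the probes that stood for the 2 arms, those of miR-32, miR-138-1, miR-150, miR-191, miR-202, miR-211, miR-296, miR-338, miR-362, miR-448, miR-547 and miR-551b. For miR-150 and miR-362 another probe of the guide was detected on 2 arrays and 1 array. Probes differ in response, so a ratio of the signals of 2 probes is not a ratio of molecules, and only its difference between the ages was tested.

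Several of the detected star strands lay inside other genes by RefSeq (GRCr8; strands not compared). The hairpin of miR-208 (chromosome 15, 32395552 to 32395634) lay within Myh6, the alpha myosin heavy chain gene, and that of miR-483 (chromosome 1, 207247859 to 207247931) within Igf2, the insulin-like growth factor 2 gene. The hairpin of miR-490 (chromosome 4, 66014586 to 66014669) lay within Chrm2, the muscarinic receptor gene of the heart. That of miR-140 lay within Wwp2 (chromosome 19, 52375293 to 52375391), that of miR-32 within Tmem245 (chromosome 5, 76391285 to 76391354) and that of miR-652 within Tmem164 (chromosome X, 111140079 to 111140159). The hairpins of miR-21, miR-31 and miR-322 lay within no other named gene of that table.

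For levels, the question was which star strands differed between P10 and P0. None of the 23 star strands detected on all 4 arrays of an age passed the threshold (limma with Benjamini-Hochberg adjustment over 157 miRNAs, adjusted p under 0.05), where 8.92% of all tested miRNAs did, 4.46% higher and 4.46% lower at P10. Their lowest adjusted p was 0.0901, and 2 had an unadjusted p under 0.05, where 28.7% of all 157 did. The differences were above 0 for 12 (51.6% over all 157) and below 0 for 11, with a median of 0.09 on the log2 scale, against 0.03 over all 157. Values of the 2 ages did not overlap for 2 of the 23, where this held for 26.1% of all tested miRNAs. 18 of the 23 passed the detection filter through P10 only: 15 missed P0 replicate 1 alone, and 2, miR-31* and miR-99b*, were detected on no P0 array.

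**Figure D2:**
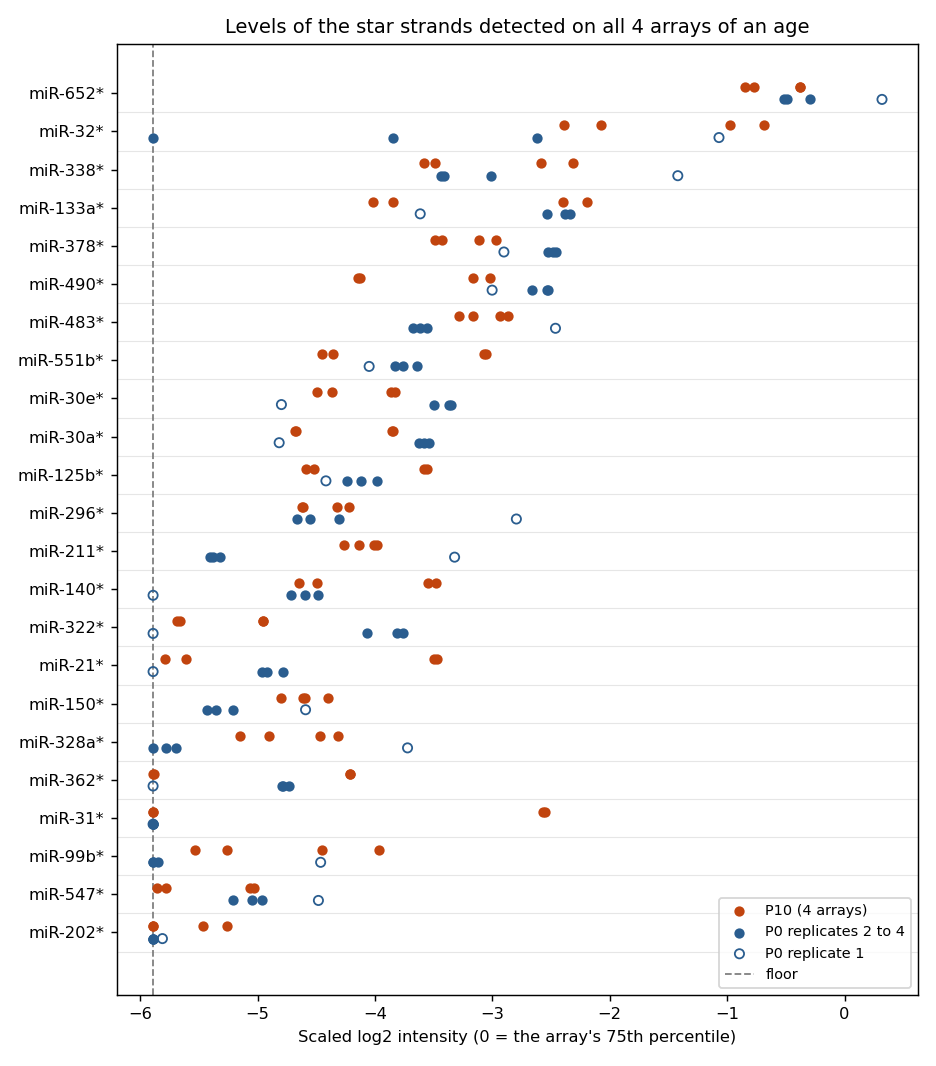
Scaled log2 intensity (horizontal axis, 0 is the 75th percentile of the array) of the 23 star strands detected on all 4 arrays of an age, with P10 arrays above P0 arrays in each row. Open circles are P0 replicate 1, often far from the other P0 arrays, and the dashed line is the floor at -5.89.

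The 2 star strands whose ages did not overlap were both lower at P10. miR-490*, of the hairpin in Chrm2, had scaled log2 levels of -4.15, -4.13, -3.16 and -3.02 on P10 arrays and -3.002, -2.53, -2.66 and -2.54 on P0 arrays. miR-378*, of a hairpin known in mouse from an intron of the metabolic regulator Ppargc1b, had -3.43, -3.49, -3.11 and -2.97 on P10 arrays and -2.90, -2.48, -2.52 and -2.45 on P0 arrays. Every P10 value lay below every P0 value in both, although the highest P10 value and P0 replicate 1 nearly met. The log2 differences were -0.93 ± 0.32 for miR-490* (adjusted p = 0.0961) and -0.66 ± 0.22 for miR-378* (SE, adjusted p = 0.0901; limma with Benjamini-Hochberg adjustment). Neither passed, while the guide miR-378 was lower at P10 by -0.91 ± 0.22 (adjusted p = 0.0426). P0 replicate 1 did not detect either star strand.

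The count of changed levels moved with the arrays used. Without P0 replicate 1, and with the other arrays rescaled, 12 of 26 star strands passed, 6 higher and 6 lower at P10, where 42.5% of 167 miRNAs did (limma with Benjamini-Hochberg adjustment). The higher ones were miR-32*, miR-211*, miR-99b*, miR-328a*, miR-150* and miR-483*, and the lower ones miR-322*, miR-378*, miR-652*, miR-547*, miR-138-1* and miR-208*. Of these, miR-138-1* and miR-208* met the detection filter through P0 replicates 2 to 4 only, and miR-99b* through P10 only. Each met it through the age where it was higher, so the filter favoured their passes. miR-328a* lay at or just above the floor on P0 replicates 2 to 4. With the close P10 pairs averaged as well, 3 of 26 passed: miR-211* and miR-328a* higher and miR-322* lower. With the pairs averaged and all 4 P0 arrays kept, 0 of 23 passed, 1 of them with an unadjusted p under 0.05. With all P0 arrays kept and P10 replicates 3 and 4 left out, 8 of 24 passed.

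miR-322*, the star strand of a miR-15 family hairpin known for restraining the cell cycle, had -4.95, -4.95, -5.68 and -5.67 on P10 arrays and -5.89, -3.76, -4.07 and -3.81 on P0 arrays. The value of -5.89 on P0 replicate 1 is the floor, and the other 3 P0 values lay above every P10 value. Its difference was -0.93 ± 0.49 over all arrays and -1.61 ± 0.13 without P0 replicate 1 (adjusted p = 0.000232, limma with Benjamini-Hochberg adjustment). miR-211* had -3.99, -4.01, -4.27 and -4.14 on P10 arrays, against -3.32, -5.41, -5.32 and -5.38 on P0 arrays. Here the dim array stood above all others, and the remaining P0 values lay below every P10 value. The differences of miR-211* were 0.76 ± 0.46 over all arrays and 1.09 ± 0.13 without P0 replicate 1 (adjusted p = 0.00139). P0 replicate 1 detected neither, so its values for both lie below its own limit of detection.

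The P10 pairs split the star strands. 10 of the 23 differed by over 1 on the log2 scale between P10 replicates 1 and 2 and P10 replicates 3 and 4, and 18 were higher on replicates 1 and 2. These counts were not made over all 157 miRNAs, but the split was not particular to star strands. Between P10 replicates 1 and 3 the median absolute log2 difference was 0.84 over the 23 and 0.76 over all 157. miR-21*, whose guide is abundant in fibroblasts, had -3.47 and -3.49 on P10 replicates 1 and 2, -5.79 and -5.61 on replicates 3 and 4, and -5.89, -4.96, -4.92 and -4.78 on P0 arrays. miR-31* had -2.55 and -2.57 on the first pair and lay at the floor on the other 6 arrays. The star strands of the muscle hairpins ran the other way: miR-133a* had -3.85 and -4.02 on P10 replicates 1 and 2, -2.40 and -2.19 on replicates 3 and 4, and -3.61, -2.34, -2.54 and -2.38 on P0 arrays. For miR-21*, miR-31* and miR-133a* the P10 spread was larger than the difference between the ages.

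The guides split in the same way, in 11 of 13 hairpins with both arms measured. The summed signal of the fibroblast list (miR-199a-5p, miR-214 and miR-21) was 4.73 to 25.7 times the scaling signal over the P10 arrays, high on the pair that was high for miR-21*, whose own guide is in that list, and 4.20 to 6.87 times over the P0 arrays. That of the 5 cardiomyocyte miRNAs was 9.26 to 20.7 times at P10 and 11.7 to 17.1 times at P0. All 3 fibroblast miRNAs were detected on every P10 array. miR-21 made up most of their sum, with log2 levels of 4.58, 4.61, 2.21 and 2.21 on P10 arrays. The level of miR-199a-5p was higher at P10 than at P0 by 2.23 on the log2 scale, so the sum does not describe each of the 3. The sum of 4 leukocyte miRNAs was also higher on P10 replicates 1 and 2 (0.208 and 0.205) than on P10 replicates 3 and 4 (0.0610 and 0.0651). It was 0.194 on the dim P0 replicate 1 and 0.0411 to 0.0503 on P0 replicates 2 to 4. The endothelial sum was higher on every P10 array (0.151 to 0.251) than on any P0 array (0.00724 to 0.0620), and the smooth muscle sum lower on every P10 array (0.852 to 1.17) than on any P0 array (1.37 to 2.17). The part of other cells in these star strand levels was not tested, and fewer cells of a type cannot be told apart from less RNA per cell. For miR-31*, measured at P10 only, the P10 level was at least 2.02-fold the P0 level, and for miR-99b* at least 1.41-fold. These bounds set the P10 mean against, on each P0 array, whichever was higher of the probe's signal and the array's limit of detection. They rest on P10 replicates 1 and 2, without which neither exceeded 1, and without P0 replicate 1 they were 3.56-fold and 2.48-fold.

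Some star strands were measured without a measured guide. miR-338*, from the hairpin in Aatk, a gene of the nervous system, had -2.31, -2.58, -3.58 and -3.49 on P10 arrays and -1.42, -3.44, -3.01 and -3.41 on P0 arrays. miR-296* had -4.33, -4.22, -4.62 and -4.61 on P10 arrays and -2.80, -4.66, -4.31 and -4.56 on P0 arrays. Both were detected on all 8 arrays, were highest on the dim P0 replicate 1, and otherwise overlapped between the ages. miR-551b* had -3.07, -3.05, -4.45 and -4.36 on P10 arrays and -4.05, -3.76, -3.64 and -3.83 on P0 arrays, so that the P0 values fell between the P10 pairs. miR-150*, whose guide is known from lymphocytes, had -4.40, -4.61, -4.80 and -4.59 on P10 arrays and -4.59, -5.36, -5.21 and -5.43 on P0 arrays, with only P0 replicate 1 among the P10 values. miR-547* had -5.07, -5.03, -5.78 and -5.86 on P10 arrays and -4.48, -5.21, -4.97 and -5.05 on P0 arrays, and overlapped. miR-362* lay at or just above the floor on P10 replicates 3 and 4 and on P0 replicate 1, with -4.22 and -4.21 on the other P10 arrays and -4.79, -4.79 and -4.73 on the other P0 arrays. miR-202* was near the floor throughout, its highest value being -5.26 on P10 replicate 1. The log2 differences of these 7 ran from -0.51 for miR-547* to 0.54 ± 0.25 for miR-150* (SE, adjusted p = 0.178, limma with Benjamini-Hochberg adjustment), and none passed.

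The star to guide ratio asks whether both arms of a hairpin moved together. It was taken within each array as log2 star intensity minus log2 guide intensity, which cancels the scaling except where a value lies at the floor. Both arms were detected together on all 4 arrays of an age in 13 star hairpins and in 4 hairpins whose arms the array names 5p and 3p. The ratio passed the threshold in 4 of the 13, where 23.5% of all 17 hairpins passed (limma with Benjamini-Hochberg adjustment over 17), 11.8% in each direction. Both arms were detected at P0, on 3 arrays, for 2 of the 4: the ratio was lower at P10 for miR-125b* and higher for miR-328a*. The other two, miR-31* and miR-99b*, had no P0 array with both arms detected, so the floor enters their P0 ratios and their passes are no measured difference. With both arms detected on at least 3 arrays of each age, a filter chosen after the data were seen, 2 of 11 passed, miR-125b* and miR-328a*, where 12.5% of 16 hairpins did. An unadjusted p under 0.05 was found for 6 of the 13, where 41.2% of all 17 had one, and the difference was above 0 for 7, where 47.1% of all 17 were above 0. Ratios of the 2 ages did not overlap in 4 of the 13, where this held for 29.4% of all 17.

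**Figure D3:**
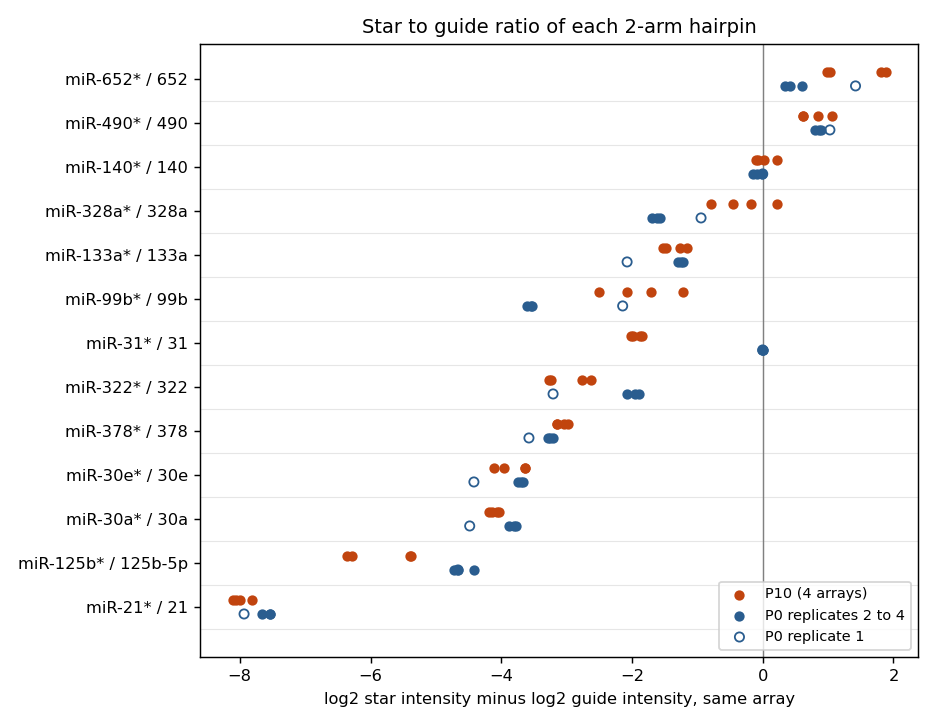
Star to guide ratio (horizontal axis, log2 star minus log2 guide intensity on the same array) of the 13 hairpins with both arms detected, with P10 arrays above P0 arrays in each row and P0 replicate 1 as an open circle. miR-125b* lies left of its P0 values at P10, and miR-328a* and miR-99b* lie right of most of theirs. The P0 values of miR-31* at 0 arise from both arms lying at or near the floor.

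miR-125b* comes from a hairpin whose guide, miR-125b-5p, is a relative of the worm developmental regulator lin-4. The probe of miR-125b* lay on chromosome 11 of rn4 (16443730 to 16443742). RefSeq also held miR-125b-3p from another hairpin, on chromosome 8 (GRCr8), and no array detected it. Whether that hairpin adds to the signal of miR-125b-5p was not tested, so the ratio may not be that of a single hairpin. The log2 star to guide ratios were -6.37, -6.28, -5.39 and -5.40 on P10 arrays and -4.66, -4.66, -4.41 and -4.72 on P0 arrays. No P10 ratio reached a P0 ratio. The difference was -1.25 ± 0.25 (SE, adjusted p = 0.0107, limma with Benjamini-Hochberg adjustment), a ratio at P0 that was 2.37 times that at P10. The level difference was 0.13 ± 0.30 for the star strand and 1.37 ± 0.49 for the guide, and neither passed alone. That of the star strand changed sign when single arrays were left out (-0.13 to 0.31). The guide was high on P10 replicates 1 and 2 (2.79 and 2.73) and lower on replicates 3 and 4 (0.80 and 0.88), against 0.24 to 0.54 at P0. Leaving out the first P10 pair gave -0.78 (adjusted p = 0.0302, limma with Benjamini-Hochberg adjustment), which still passed, and leaving out the other pair gave -1.71.

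miR-328a* had log2 ratios of 0.22, -0.18, -0.80 and -0.45 on P10 arrays and -0.94, -1.57, -1.70 and -1.62 on P0 arrays. Again the ages did not overlap, but the star strand lay at or just above the floor on P0 replicates 2 to 4. The difference was 1.16 ± 0.25 (adjusted p = 0.0109, limma with Benjamini-Hochberg adjustment), a ratio 2.23 times as high at P10. The star strand differed by 0.56 ± 0.49 and its guide by -0.59 ± 0.34, in opposite directions, and neither passed alone. A doubled floor ended the call (0.55, adjusted p = 0.073). The ratio also failed to pass with P10 replicates 1 and 2 left out, with normexp background, with no scaling and in the authors' deposited matrix.

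miR-99b* had log2 ratios of -1.22, -1.70, -2.08 and -2.51 on P10 arrays and -2.14, -3.61, -3.53 and -3.54 on P0 arrays. P0 replicate 1 overlapped P10 and the other 3 lay below it. The difference was 1.33 ± 0.40 (adjusted p = 0.0456, limma with Benjamini-Hochberg adjustment), and it is no measured size, because no P0 array detected the star strand. Leaving out P10 replicates 1, 2 or 3, or P0 replicates 2, 3 or 4, ended the call, with adjusted p from 0.0811 to 0.132. Without P0 replicate 1 the difference was 1.75 (adjusted p = 0.00163).

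miR-31* had log2 ratios of -1.85, -1.88, -1.98 and -2.02 on P10 arrays. Those 4 values lay close together, although both arms were higher on P10 replicates 1 and 2 than on replicates 3 and 4, by 3.33 for the star strand and 3.20 for the guide on the log2 scale. On P10 replicates 3 and 4 the star strand was at the floor, which sets its ratio there. At P0 the guide was at the floor on 3 arrays and the star strand on all 4, so the ratio was not measured at that age and its difference of -1.93 ± 0.09 (adjusted p = 3.35e-07, limma with Benjamini-Hochberg adjustment) holds no information on P0. With no floor the sign turned, to 4.09 (adjusted p = 0.26).

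With P10 pairs averaged and P0 replicates 2 to 4 averaged, which leaves 2 samples per age, no ratio measured at both ages passed, the 1 pass of the 13 being the floor-bound miR-31*. The differences of miR-125b* and miR-328a* were then -1.23 (adjusted p = 0.289) and 0.98 (adjusted p = 0.394). This alternative was chosen after the data were seen. With the P10 pairs alone averaged, both still passed (adjusted p = 0.0395 and 0.0492, limma with Benjamini-Hochberg adjustment).

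Among the 9 hairpins whose ratio did not pass, the differences ran from -0.70 ± 0.32 for miR-322* to 0.73 ± 0.31 for miR-652*. The ratio of miR-652* was above 0 on all 8 arrays, with log2 values of 1.81, 1.88, 0.98 and 1.03 on P10 arrays and 1.42, 0.34, 0.60 and 0.41 on P0 arrays. Only P0 replicate 1 overlapped P10. The levels of miR-652* were -0.38, -0.38, -0.85 and -0.77 on P10 arrays and 0.32, -0.51, -0.29 and -0.49 on P0 arrays. Its guide miR-652 was lower at P10 by -1.08 ± 0.21 (adjusted p = 0.0186) and the star strand by -0.35 ± 0.26 (adjusted p = 0.385, limma with Benjamini-Hochberg adjustment). Without P0 replicate 1, 10 of 15 star ratios passed, where 76.2% of 21 did: miR-652*, miR-483*, miR-328a*, miR-99b* and miR-30c-2* higher at P10, and miR-125b*, miR-322*, miR-21*, miR-30a* and miR-31* lower. By the levels over all 8 arrays, the floor enters the ratios of miR-31*, miR-99b* and miR-328a* at P0 among these. At P10 it enters those of miR-483*, miR-30c-2* and miR-31*.

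The ratios of miR-140*, miR-490*, miR-378* and miR-21* did not pass either. miR-140*, of a hairpin known from cartilage, had log2 ratios of -0.07, -0.10, 0.03 and 0.22 on P10 arrays and 0.00, 0.00, -0.08 and -0.14 on P0 arrays, the first of these with both arms at the floor. Its difference was 0.08 ± 0.10 (adjusted p = 0.625), and the level differences were 0.88 ± 0.41 for the star strand and 0.80 ± 0.45 for the guide, neither of which passed. The log2 ratio of miR-490* was 0.79 ± 0.21 at P10 and 0.89 ± 0.10 at P0 (SD, n = 4), a difference of -0.11. The ratio of miR-378* was -3.08 ± 0.09 at P10 and -3.33 ± 0.17 at P0, and every P10 ratio lay above every P0 ratio, but the difference of 0.25 ± 0.11 had an adjusted p of 0.113. For miR-21* the ratio was -7.99 ± 0.12 at P10 and -7.67 ± 0.19 at P0, a difference of -0.33 ± 0.12 with an unadjusted p of 0.0318 and an adjusted p of 0.090 (limma with Benjamini-Hochberg adjustment). On P0 replicate 1 miR-21* was not detected and set to the floor, and with no floor the difference turned to 1.74.

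**Figure D4:**
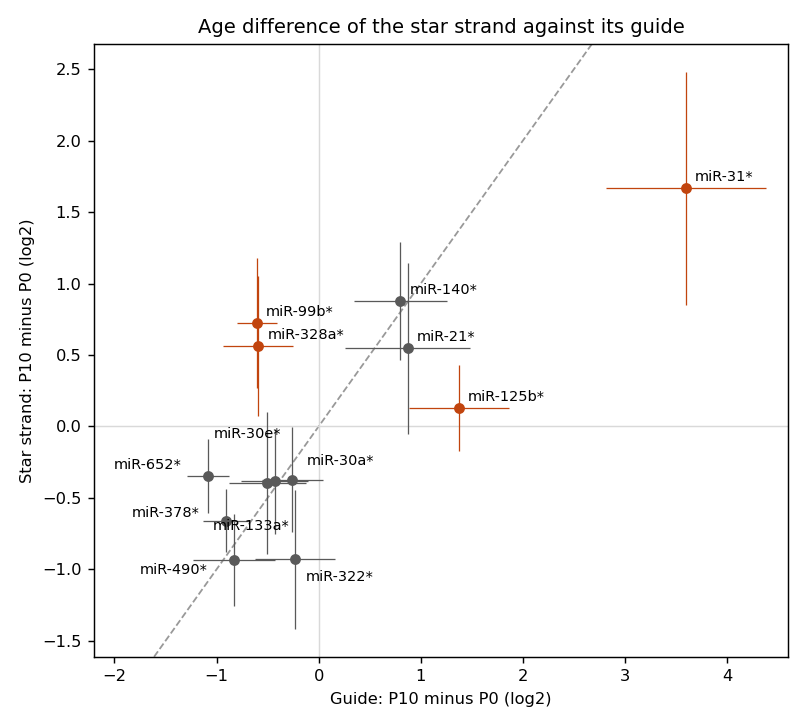
Log2 difference, P10 minus P0, of the guide (horizontal axis) and of its star strand (vertical axis) for the 13 hairpins, with bars of 1 SE. The dashed line marks equal differences; red points are the 4 hairpins whose ratio passed the threshold, with miR-125b* and miR-31* below it and miR-99b* and miR-328a* above it. No P0 array detected miR-31* or miR-99b*.

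The muscle hairpin miR-208 did not enter that test, since no age had both arms on all 4 arrays. Its star strand had levels of -5.76, -5.89, -5.28 and -5.31 on P10 arrays and -5.89, -4.67, -4.82 and -4.75 on P0 arrays. Its guide miR-208 had -5.04, -5.16, -4.45 and -4.34 on P10 arrays and lay at the floor of -5.89 on all 4 P0 arrays. On P0 replicate 1 both arms were at the floor, and levels of the 2 probes cannot be ranked against each other. The log2 ratio was -0.82 ± 0.11 at P10 and 0.86 ± 0.57 at P0 (SD, n = 4). When hairpins with both arms detected on at least 1 array were admitted, its difference was -1.67 ± 0.27 (SE, adjusted p = 0.00227, limma with Benjamini-Hochberg adjustment over 26 hairpins), where 30.8% passed. Since the guide was at the floor at P0, the floor sets the size. The guide was detected on 4 P10 arrays and 1 P0 array, and the star strand on 2 and 3.

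miR-483*, from the hairpin in Igf2, was detected on all 8 arrays. Its levels were -2.86, -2.93, -3.29 and -3.17 on P10 arrays and -2.46, -3.62, -3.56 and -3.68 on P0 arrays, while the guide was detected on 1 P10 array and 3 P0 arrays. The log2 ratio under the same wider filter was 2.79 ± 0.18 at P10 and 1.28 ± 0.44 at P0 (SD, n = 4). It differed by 1.51 ± 0.23 (SE, adjusted p = 0.00196, limma with Benjamini-Hochberg adjustment), with the guide at the floor on 3 P10 arrays, so here too the floor sets the size. In that wider fit 8 of 20 star ratios passed.

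The lists of related hairpins are read against the 15.7% of all 204 star strands that were detected. Of 9 star strands of the let-7 family, known regulators of developmental timing, 1 was detected (let-7b*, on 1 array), while all 8 guides were detected. None of 12 star strands of the miR-17-92 cluster and its paralogs, known for promoting proliferation, was detected, against 8 of their 10 guides, nor any of 6 from the miR-23, miR-27 and miR-24 clusters, whose 5 guides were all detected on all 8 arrays. Of 6 muscle star strands, miR-133a* and miR-208* were detected, and of 5 of the miR-30 family miR-30a*, miR-30e*, miR-30c-1* and miR-30c-2*. miR-126*, the endothelial member, was not detected, while its guide was. No list had a star strand past the threshold.

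In the miR-30 family, known to be abundant in heart muscle, miR-30a* had -4.68, -4.68, -3.85 and -3.86 on P10 arrays and -4.82, -3.58, -3.63 and -3.54 on P0 arrays. miR-30e* had -4.36, -4.50, -3.83 and -3.86 on P10 arrays and -4.80, -3.37, -3.50 and -3.35 on P0 arrays. Both were lower on P10 replicates 1 and 2 than on the other P10 pair, as were their guides. Their probes of 17 and 18 bases share a run of 12 bases, so signal from one miRNA at the other's probe was not tested. Among the probes that stood for the 23 star strands, no other pair shared more than 8.

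miR-32* varied more than any other tested miRNA over P0 replicates 2 to 4. Its levels were -0.68, -0.98, -2.07 and -2.39 on P10 arrays and -1.07, -5.89, -2.62 and -3.85 on P0 arrays. Its range over P0 replicates 2 to 4 was 3.27 on the log2 scale, where the median of 157 miRNAs was 0.15. The next widest were miR-466b (2.57), miR-672 (2.53) and miR-466d (2.03), and the widest of the rest had 0.97. The order of the 8 arrays was the same in miR-32*, miR-466b and miR-672. In miR-466d P0 replicate 1 stood above P10 replicate 2, and P0 replicate 3 (-3.86) just above P10 replicate 4 (-3.89). The order was otherwise the same. miR-465, with a range of 0.73, also ran in the order of miR-32*, with P0 replicates 2 and 4 both at the floor. The level of miR-32* differed by 1.83 ± 0.93 between the ages (adjusted p = 0.223, limma with Benjamini-Hochberg adjustment).

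These 4 miRNAs carry a repeat, shown here in capitals.
miR-32*: gcaauuuagUGUGUGUGauauu
miR-466b: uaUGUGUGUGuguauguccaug
miR-672: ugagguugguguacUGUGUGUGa
miR-466d: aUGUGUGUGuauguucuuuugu
The letters UGUGUGUG were searched on the mature strand only. They occur in 4 of the 606 miRNAs of the array with a sequence (0.660%), and these are the 4. miR-32* is the only star strand among them, and its own guide, miR-32, was detected on no array. The order of the arrays was not particular to them, since miR-465, whose sequence lacks the repeat, shared it. The pattern was noticed in these data and not tested.

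**Figure D5:**
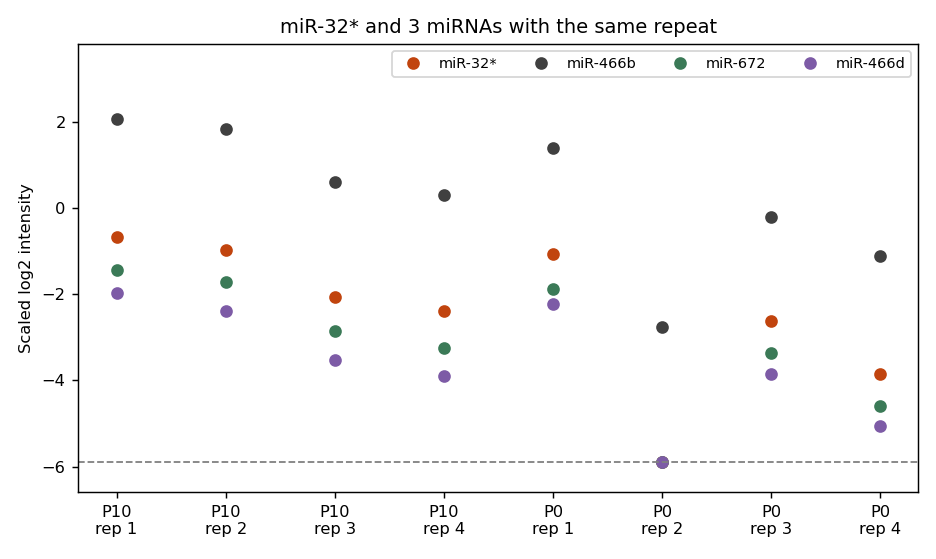
Scaled log2 intensity (vertical axis) of miR-32*, miR-466b, miR-672 and miR-466d on the 4 P10 arrays (left) and the 4 P0 arrays (right), with the floor as a dashed line. On P0 replicate 2 all but miR-466b lie at the floor, and the arrays run in nearly the same order in all 4 miRNAs.

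The 9 star strands detected without covering an age were miR-208*, miR-138-1* and miR-30c-2* on 5 arrays each, miR-191* on 4, miR-30c-1* on 2, and let-7b*, miR-181a-1*, miR-448* and miR-466b-1* on 1 each. All lay within 1 log2 unit of the floor on the P10 arrays. The tested star strands had 33 other probes. Of these, 21 from 17 star strands were detected on at least 4 arrays. Among the 21, 19 differed between the ages in the direction of the probe that stood for the star strand. No array detected any other probe of miR-338*, miR-99b* or miR-322*. The other probes of miR-31* and miR-328a* were detected on 2 arrays each and that of miR-362* on 1.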

How the data were processed

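RNA of cardiomyocytes was labelled with Cy3 and read on 1-colour Agilent miRNA arrays, per the labels' protocols. The scanner files hold intensity values that Agilent Feature Extraction 10.7.1.1 had background-subtracted, per the file headers. A deposited matrix holds log2 values whose normalization the sources used here do not name. Unflagged spots of a probe were averaged, and a probe was called detected where a share of 0.5 or more of its spots stood well above background. Signals were divided, array by array, by the 75th percentile of the 111 probes that all 8 arrays detected, floored at 0.0169 (log2 -5.89, the middle of the 8 arrays' detection limits) and put on the log2 scale, so a detected probe can lie at the floor. Of several probes for a miRNA, that of highest mean was used. limma 3.58.1 in R 4.3.3 (lmFit and eBayes, Benjamini-Hochberg adjustment over all features fitted) compared 4 P10 arrays with 4 P0 arrays, without blocks, after a test on simulated data. The number of arrays limits the precision. Every star strand detected on all 4 arrays of an age is named, and the others detected by their number of arrays. The members and lists were chosen with earlier results of these data known. Replicate numbers did not pair the arrays: the correlations of same-numbered deviations were 0.16, -0.15, 0.03 and 0.13. No 2 arrays held identical values.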

Additional observations from a re-analysis of the deposited data

Results flagged for a closer look

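An array stood apart from the other 3 of its age in 20 of 73 groups of 4 arrays, by Dixon's ratio of the gap to the nearest array over the whole range past its critical value, where chance gives about 1 in 20. The array was P0 replicate 1 in 19 of the 20. Its level was the lowest at P0 for miR-362* (ratio 0.950), miR-30a* (0.931), miR-30e* (0.901), miR-322* (0.856), miR-378* (0.849), miR-133a* (0.848), miR-21* (0.840) and miR-140* (0.838). Its level was the highest for miR-202* (1.0), miR-99b* (0.971), miR-211* (0.958), miR-328a* (0.909) and miR-483* (0.902). Of these 13 star strands, miR-483* was the one that this array detected, so the other values lay below its limit of detection.

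The star to guide ratio of P0 replicate 1 was the lowest at P0 for miR-30e* (0.915), miR-133a* (0.906), miR-322* (0.858) and miR-30a* (0.853), and the highest for miR-99b* (0.949) and miR-328a* (0.82903). The other case was miR-31*, where the ratio on P0 replicate 4 stood apart (1.0) because its guide was just above the floor and both arms were at the floor on the other 3 P0 arrays.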

How the results depend on the processing

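The alternatives chosen after the data were seen were the bounds with arrays left out, a stricter detection filter on ratios, and those that average P10 pairs or P0 replicates 2 to 4 together with other changes or set a filter without P0 replicate 1. Scaling to the 75th percentile over all probes was not run, since that percentile was 0 or below on some arrays.

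The count of star strands with a changed level was 0 and became 1 with the floor doubled (miR-378*), with no floor (miR-31*), with quantile scaling (miR-547*), with no scaling (miR-32*) and in the authors' deposited matrix (miR-31*), 8 without P10 replicates 3 and 4, and 3 without P0 replicate 1 with P10 pairs averaged. It ranged from 0 to 12 when single arrays were left out. The count of ratios past the threshold was 4, including miR-31* and miR-99b* whose P0 ratios the floor enters, and became 1 with normexp, 2 with no floor, 0 with both arms on all 8 arrays (1 hairpin), 8 with both on at least 1 array, 0 in the deposited matrix, 2 with both arms on at least 3 arrays of each age, 9 without P0 replicate 1 with P10 pairs averaged, and 1 with 2 averaged samples per age. It ranged from 3 to 10 when single arrays were left out. With the replicate number as a block, which the pairing check did not bear out, 0 levels and 4 ratios passed. The mean count of detected star strands differed by 6.75 between the ages and by 1.92 to 9.25 when single arrays were left out.

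The ratio of miR-125b* passed in 22 of 24 settings, the main one included (not with normexp, -1.64, adjusted p = 0.0656, limma with Benjamini-Hochberg adjustment, nor with 2 averaged samples per age). The authors' deposited matrix was not among the 24, and many settings share arrays. The ratio of miR-328a* passed in 19 of 25 settings and that of miR-99b* in 9 of 23. The median over all miRNAs moved from 0.03 to -0.25 with normexp, -0.12 with quantile scaling, 0.35 with no scaling and 0.44 in the deposited matrix.

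Signs turned with normexp for the levels of miR-125b* (-0.31), miR-140* (-0.10), miR-150* (-0.14), miR-202* (-0.33), miR-21* (-0.22), miR-328a* (-0.13), miR-483* (-0.022), miR-551b* (-0.29) and miR-99b* (-0.072) and the ratio of miR-30e* (-0.15). With the floor doubled they turned for the levels of miR-328a* (-0.042) and miR-362* (0.25), and with no floor for the level of miR-362* (2.02) and the ratios of miR-21* (1.74) and miR-31* (4.09). With no scaling they turned for the levels of miR-296* (0.16), miR-338* (0.35) and miR-652* (0.17) and the ratios of miR-133a* (-0.041), miR-30e* (-0.40) and miR-490* (0.15). With the mean over probes they turned for the level of miR-362* (0.067) and the ratios of miR-140* (-0.18) and miR-490* (0.23), and with quantile scaling for the ratio of miR-30a* (0.033). In the deposited matrix they turned for the levels of miR-133a* (1.09), miR-30a* (0.86), miR-30e* (0.44), miR-362* (0.85) and miR-547* (0.97) and the ratios of miR-140* (-0.32), miR-21* (0.71), miR-30a* (1.39), miR-31* (2.23) and miR-322* (0.052). Without P10 replicates 1 and 2 they turned for the levels of miR-125b* (-0.36), miR-133a* (0.42), miR-202* (-0.061), miR-21* (-0.50), miR-30a* (0.039) and miR-551b* (-0.59) and the ratio of miR-30e* (-0.15). Without P10 replicates 3 and 4 they turned for the levels of miR-338* (0.36) and miR-362* (0.79) and the ratios of miR-133a* (-0.041), miR-140* (-0.027) and miR-490* (0.063). Without P0 replicate 1 and with P10 pairs averaged they turned for the levels of miR-125b* (-0.13), miR-338* (0.11) and miR-551b* (-0.17) and the ratios of miR-133a* (-0.10) and miR-30e* (-0.13), and these 2 ratios turned alike with both arms detected on the other 7 arrays. With 2 averaged samples per age they turned for the levels of miR-362* (0.28) and miR-483* (-0.022) and the ratio of miR-30a* (0.050). When single arrays were left out, values crossed 0 for the levels of miR-125b* (-0.13 to 0.31), miR-338* (-0.40 to 0.11), miR-362* (-0.50 to 0.28) and miR-551b* (-0.17 to 0.33) and the ratios of miR-133a* (-0.10 to 0.19) and miR-30e* (-0.13 to 0.14). The causes were not tested. Signal over background limits P0 replicate 1 most.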

Other observations

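Further lists of hairpins are read against the 15.7% of all star strands that were detected. Of 6 star strands of the miR-15 family, known for restraining the cell cycle, miR-322* was detected, while all 6 guides were. Of 6 star strands listed with fibroblasts and collagen miR-21* was detected, with all 5 guides, and of 4 listed with blood miR-150*, with 2 of 4 guides. Of 4 neural star strands miR-138-1* was detected, with none of 3 guides. Of 2 star strands listed with Igf2, miR-483*, whose hairpin lay in that gene, was detected.

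Among marker miRNAs of other cells, miR-150 of the leukocyte list was not detected. The erythroid sum was 0.00367 to 0.0180 times the scaling signal at P10 and 0.00186 to 0.0336 at P0, with miR-144 not detected, and the neural sum 0.0504 to 0.0631 at P10 and 0.0178 to 0.0697 at P0, with miR-124 and miR-9 not detected.

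Runs of GGGG were present in 2 of the 27 detected star strands with a sequence (7.41%), in 7.79% of those not detected, in 1.18% of the guides and in 5.78% of all 606 miRNAs with a sequence. The letters were searched on the mature strand only.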
